A study of Mus musculus with 24 samples.

Results

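Microglia are the resident macrophages of the brain. The report covers 9 genes that mark them or that they supply to the complement system: the 3 C1q chain genes C1qa, C1qb and C1qc, the receptor pair Trem2 and Tyrobp, the surface genes Cx3cr1, P2ry12 and Tmem119, and the growth factor receptor gene Csf1r. They were taken by symbol from the annotation of the deposited expression files, and all 9 were found among the 48526 genes listed. The study sequenced polyA RNA from prefrontal cortex (PFC) and nucleus accumbens (NAc) of male C57BL/6J mice that carried no transgene or deletion. The mice were 8 weeks old when purchased. All mice were first entrained for 2 weeks to 12 h light and 12 h dark. Control mice (Ctrl) then stayed on that cycle, while chronic jet lag mice (CJL) had lights on and off advanced by 6 h every 2 days. Tissue was taken on Day 10, at Zeitgeber Time 1 (ZT1, early in the light phase) or ZT13 (early in the dark phase), so that region, time and lighting gave 8 groups of 3 libraries each, 24 in all. ZT counts from lights on, so in CJL mice it follows the shifted cycle, last advanced on Day 8. Whether Ctrl and CJL mice were at the same internal phase at a given ZT was not tested. The comparisons asked whether lighting or time of day changed the level of these genes within a region, and whether the regions differed.

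C1q starts the classical complement pathway: 3 chains, encoded by C1qa, C1qb and C1qc, assemble into a recognition molecule that binds antibody complexes, dying cells and, in the developing brain, synapses tagged for removal. In the brain, microglia are the main source of its messenger RNA. TREM2 is a lipid and lipoprotein receptor that signals through the adaptor TYROBP (also called DAP12) and the kinase SYK. CX3CR1 receives the neuronal chemokine CX3CL1, P2RY12 senses purine nucleotides released by damaged or active cells, TMEM119 is a membrane protein used as a microglial marker, and CSF1R binds CSF1 and IL34, on which microglia depend for survival.

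Levels are FPKM, fragments scaled to gene length and to the fragments mapped in the library, as the authors deposited them. The read counts behind each value were not used here, so the counting error of a gene is unknown and precision is given by the spread between the 3 libraries of a group, which the study's design takes from separate mice. The regions carried their own markers: all 6 cortex markers were lower and all 6 striatum markers higher in NAc than in PFC. In 7 libraries the markers of a neighboring tissue stood over 1.5 log2 units above the median of the region, those of olfactory bulb in PFC ZT1 Ctrl replicate 1 and PFC ZT1 CJL replicate 2, of choroid plexus in PFC ZT13 CJL replicate 1, PFC ZT13 Ctrl replicate 1 and NAc ZT13 Ctrl replicate 3, and of thalamus and hypothalamus in NAc ZT13 CJL replicate 3 and NAc ZT1 CJL replicate 2. The mitochondrial share of summed FPKM was 15.5% to 21.3% in PFC ZT1 Ctrl, against 13.6% to 14.6% in the remaining 9 PFC libraries. In the study's sequencing statistics base quality was lower in each NAc library than in each PFC library, so that region and base quality cannot be told apart.

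The C1q genes lie side by side on the minus strand of chromosome 4 (mm10) in the order C1qb (ENSMUSG00000036905, chr4:136880129-136886187), C1qc (ENSMUSG00000036896, chr4:136889804-136893065) and C1qa (ENSMUSG00000036887, chr4:136895917-136898803). The 3 genes together span 18675 bp, with gaps of 3616 and 2851 bp. Trem2 (ENSMUSG00000023992) is at chr17:48346401-48354147, Tyrobp (ENSMUSG00000030579) at chr7:30413760-30417585 and Tmem119 (ENSMUSG00000054675) at chr5:113793729-113800516. No other gene of the GENCODE M21 annotation overlaps these 6. P2ry12 (ENSMUSG00000036353, chr3:59216272-59262871) lies inside Med12l, which is transcribed from the opposite strand. The annotated span of Cx3cr1 (ENSMUSG00000052336, chr9:119901616-120068283) holds or touches 8 other genes, and that of Csf1r (ENSMUSG00000024621) touches 2. Whether the counting used strand is not given in the sources used here, so reads of Cx3cr1, P2ry12 and Csf1r could be shared with those neighbors.

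RefSeq start sites on GRCm38.p6 were matched for 5 of the 9 genes: C1qb, C1qc, Trem2, Cx3cr1 and P2ry12. The windows before the start of C1qb and C1qc, neighbors whose levels moved together across libraries, and of Trem2, the gene with the lowest adjusted p of the 9 by time of day in PFC, are printed 5′ to 3′. Capitals mark GAGGAA or its reverse complement TTCCTC, the core bound by the myeloid transcription factor PU.1. The C1qb window is chr4:136886201-136886450 on the minus strand, the C1qc window, kept to the bases before both the RefSeq and the deposited gene start, is chr4:136893066-136893164 on the minus strand, and the Trem2 window is chr17:48346151-48346400 on the plus strand.
C1qb: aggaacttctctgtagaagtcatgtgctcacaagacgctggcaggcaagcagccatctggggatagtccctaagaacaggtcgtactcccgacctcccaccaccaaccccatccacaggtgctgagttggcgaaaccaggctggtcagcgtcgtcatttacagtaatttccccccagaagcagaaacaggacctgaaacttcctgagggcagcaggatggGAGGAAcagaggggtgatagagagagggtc
C1qc: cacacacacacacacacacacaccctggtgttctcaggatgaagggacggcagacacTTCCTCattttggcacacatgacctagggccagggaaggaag
Trem2: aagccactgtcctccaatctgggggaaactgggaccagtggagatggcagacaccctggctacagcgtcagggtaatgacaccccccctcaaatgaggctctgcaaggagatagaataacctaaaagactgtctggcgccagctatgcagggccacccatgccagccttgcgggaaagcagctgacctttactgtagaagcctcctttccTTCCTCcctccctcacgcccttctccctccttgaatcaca
Counted from the RefSeq start, the match began at -30 in C1qb, -193 in C1qc and -40 in Trem2, on the gene's strand in C1qb and on the other strand in C1qc and Trem2. The 250 bases before the start of Cx3cr1 and P2ry12 held neither string. On either strand, 23.3% of all 32851 such windows held a match. A match of 6 letters describes the sequence and is not evidence of binding.

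All 9 genes were detected in each of the 24 libraries. Averaged over libraries, C1qa (32.0 FPKM), C1qb (30.4) and C1qc (22.9) were the most abundant per length, followed by Csf1r (21.1), P2ry12 (18.2), Cx3cr1 (14.4), Tyrobp (13.4), Tmem119 (8.37) and Trem2 (6.80). The range over libraries differed by gene. The highest library exceeded the lowest by 1.35-fold for Csf1r, 1.37-fold for Cx3cr1, 1.41-fold for C1qb, 1.52-fold for C1qc, 1.79-fold for C1qa, 1.81-fold for Tmem119, 1.96-fold for Trem2, 2.70-fold for Tyrobp and 3.21-fold for P2ry12. Of the 8 markers of macrophages at the brain's borders, 4 are given singly. They were below the lowest value of any of the 9 genes in each library: Mrc1, the mannose receptor gene, did not exceed 1.14 FPKM, Pf4 1.89, Cd163 1.13 and Lyve1 0.630. All 8 together summed to 6.75 to 9.64 FPKM in PFC libraries and 4.22 to 8.40 FPKM in NAc libraries. In bulk tissue, fewer microglia and less of a transcript per microglial cell cannot be told apart.

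**Figure D1:**
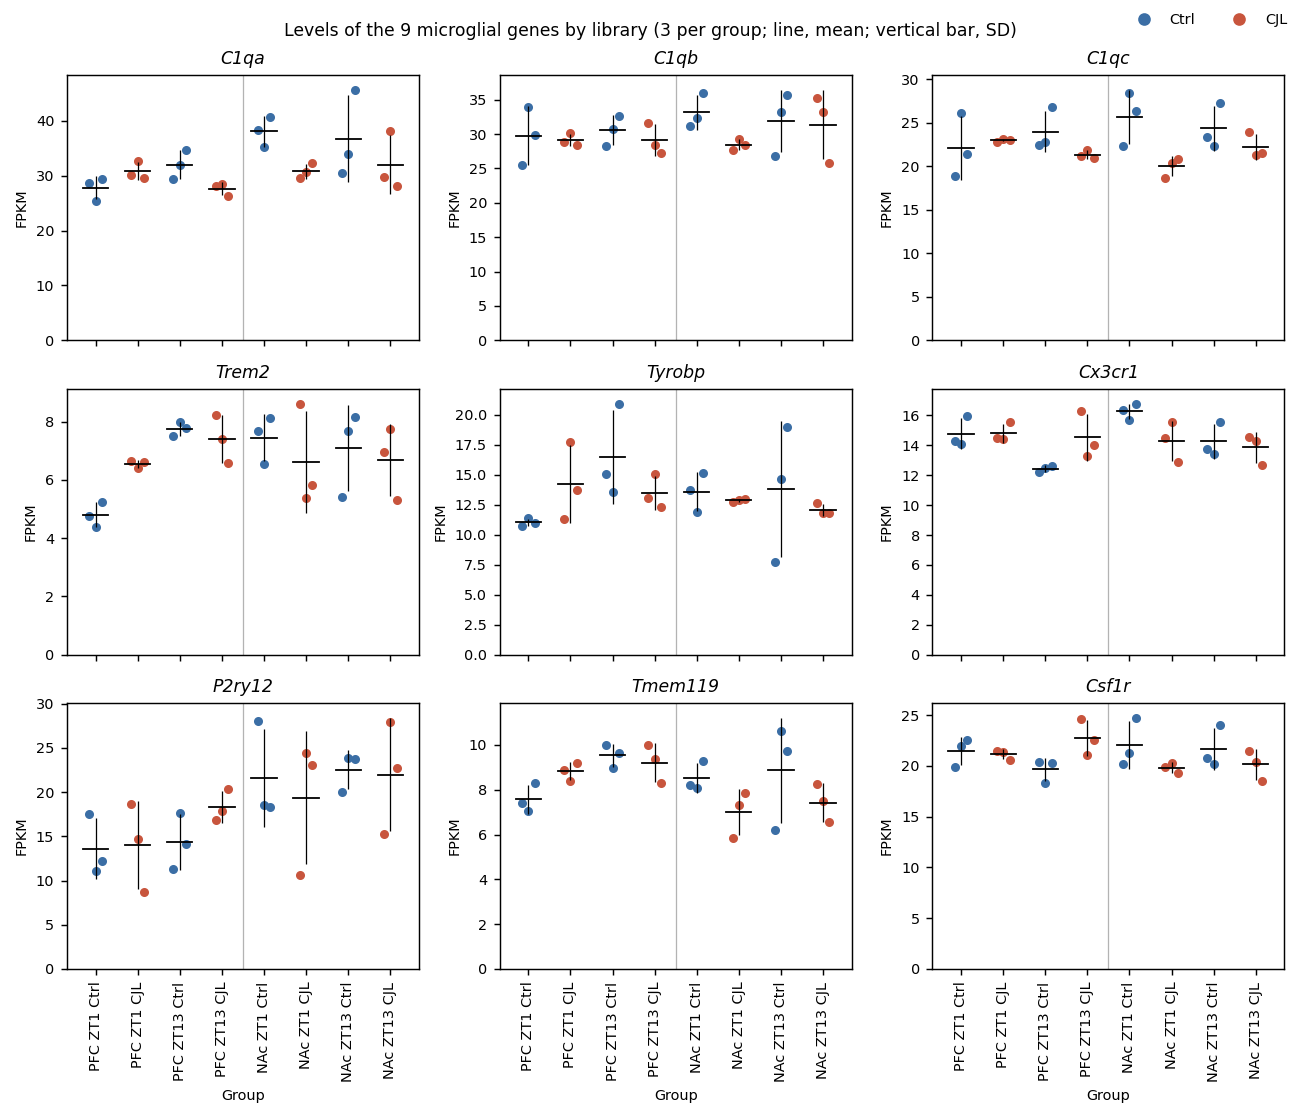
FPKM (vertical axis, linear from 0) of the 9 genes in each of 24 libraries, by group; points are libraries, blue Ctrl and red CJL, the horizontal line is the mean of 3 and the vertical bar its SD. Trem2 was lowest in the PFC ZT1 Ctrl libraries, at 4.39 to 5.25 FPKM, while P2ry12 libraries of 1 group lay as far apart as 10.7 and 24.4 FPKM.

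The time-of-day comparison in control PFC held the clearest difference. Trem2 was 1.61-fold higher at ZT13 than at ZT1. Its level was 4.77, 4.39 and 5.25 FPKM in the 3 ZT1 Ctrl libraries and 7.51, 7.98 and 7.80 FPKM in the 3 ZT13 Ctrl libraries. The groups did not overlap, and the gap between them exceeded the range within either. The log2 difference was 0.68 ± 0.09 (SE; 95% interval 0.48 to 0.89), with an adjusted p of 0.00501 in limma. Differences and folds here are on the log2(FPKM + 0.1) scale unless FPKM is named, p-values were adjusted by the Benjamini-Hochberg method over all genes tested, and a gene was called at an adjusted p under 0.05. Trem2 kept this call in all 21 alternatives run, with differences from 0.60 to 0.75.

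The adaptor gene Tyrobp was also higher in each ZT13 Ctrl library of PFC. It measured 10.8, 11.4 and 10.9 FPKM at ZT1 and 15.1, 13.5 and 20.9 FPKM at ZT13. The difference of 0.55 ± 0.17 (SE) had an adjusted p of 0.0571 in limma and did not pass. Without PFC ZT1 CJL replicate 1 it passed (adjusted p = 0.0477), as it did without PFC ZT1 CJL replicate 2 (adjusted p = 0.0359), both in limma.

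Tmem119 rose in the same comparison, from 7.39, 7.04 and 8.29 FPKM at ZT1 to 10.0, 8.99 and 9.62 FPKM at ZT13. These groups did not overlap either. The difference of 0.33 ± 0.09 (SE) passed with an adjusted p of 0.0372 in limma. That call was less stable than the call on Trem2: it was kept in 7 of 21 alternatives, and with a correction for GC content and transcript length the difference was 0.13 (adjusted p = 0.410). Leaving out 1 library ended the call for any of PFC ZT1 Ctrl replicates 1 and 2, PFC ZT13 Ctrl replicates 1, 2 and 3, PFC ZT13 CJL replicate 2 and PFC ZT1 CJL replicate 1, with adjusted p-values from 0.0505 to 0.113 in limma.

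Cx3cr1 went the other way. Its libraries measured 14.3, 14.1 and 16.0 FPKM at ZT1 and 12.2, 12.5 and 12.6 FPKM at ZT13, again without overlap. The difference of -0.24 ± 0.08 (SE) missed the threshold (adjusted p = 0.0746, limma). It passed with median-of-ratios scaling (-0.31, adjusted p = 0.0341) and with quantile normalization (-0.30, adjusted p = 0.0411), both in limma.

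In this comparison, 2 of the 9 genes were therefore called, both higher, where 12.3% of 14914 genes tested in PFC were called. The call counts over all genes were 1312 higher and 528 lower, and with median-of-ratios scaling 833 higher and 802 lower. C1qa, Tmem119, Trem2 and Tyrobp had non-overlapping groups with ZT13 higher, where 21.9% of all genes did, and Cx3cr1 with ZT13 lower, where 11.5% did. The median difference of the 9 genes was 0.12, and that of all genes 0.06. C1qa measured 28.7, 25.5 and 29.4 FPKM at ZT1 and 29.4, 32.0 and 34.7 FPKM at ZT13, a difference of 0.20 ± 0.08 (SE) that was not called (adjusted p = 0.111, limma). It was called without PFC ZT13 Ctrl replicate 1 (0.26, adjusted p = 0.0458, limma), and with the correction for GC content and transcript length its sign was opposite (-0.09).

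The same PFC ZT1 Ctrl libraries stand in the comparison of lighting at ZT1. There Trem2 was 1.36-fold higher under CJL, at 6.65, 6.40 and 6.61 FPKM against 4.77, 4.39 and 5.25 FPKM. The 3 CJL libraries lay close together and above all 3 controls. The difference of 0.44 ± 0.09 (SE; 95% interval 0.24 to 0.65) was called with an adjusted p of 0.0438 in limma, and Trem2 was the 1 gene of the 9 called, where 1.59% of genes tested were called. Tmem119 measured 8.89, 8.39 and 9.18 FPKM under CJL, above all 3 controls, with a difference of 0.22 ± 0.09 (SE; adjusted p = 0.193, limma). C1qa likewise had non-overlapping groups, at 30.2, 32.7 and 29.7 FPKM under CJL. These 3 genes with CJL higher compare with 17% of all genes. Tyrobp measured 11.3, 17.7 and 13.7 FPKM under CJL and overlapped its controls (0.34 ± 0.17 SE). The median difference of the 9 genes was 0.07, and that of all genes 0.04.

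The call on Trem2 at ZT1 lay near the threshold: 4 of 21 alternatives kept it, with differences from 0.38 to 0.51 throughout. Among fits that each left out 1 library, those without PFC ZT13 CJL replicate 1 and without PFC ZT13 Ctrl replicate 1 kept the call, and the other 10 had adjusted p-values from 0.0517 to 0.130 in limma. Beside both Trem2 results, the PFC ZT1 Ctrl libraries had the highest mitochondrial shares in PFC. In the study's sequencing statistics they also had lower GC content, higher base quality and lower clean read rates than each other PFC library. This group and these measures therefore cannot be told apart. With the correction for GC content and transcript length, the difference of Trem2 was 0.67 for time in Ctrl and 0.39 for lighting at ZT1 (adjusted p = 0.00615 and 0.0642, limma). That correction used the longest annotated transcript of each gene: 4784 nt for Trem2, 2242 for Tmem119, 1040 for C1qa and 597 for Tyrobp. Whether the Trem2 reads came from that transcript was not tested, nor was the part of its length in the corrected differences. The summed FPKM of the 8 border macrophage markers was 7.19 to 9.06 in PFC ZT1 Ctrl, 8.14 to 8.44 in PFC ZT1 CJL and 8.44 to 9.64 in PFC ZT13 Ctrl, with no marker at 0, and none of the 3 tested was called in either comparison. The summed FPKM of the 9 olfactory bulb markers was 38.8 to 70.2, 34.7 to 140 and 28.5 to 34.1 in these groups, and that of the 8 choroid plexus markers 2.65 to 12.0, 3.66 to 6.52 and 21.9 to 615, with at most 1 marker of either list at 0 in a library. The 8 ependymal markers summed to 6.59 to 8.43, 9.31 to 11.5 and 9.14 to 10.7 FPKM, with at most 1 at 0, and the 8 endothelial markers to 100.2 to 112.1, 112.4 to 119.5 and 116 to 139 FPKM, with none at 0. Both sums were lowest in PFC ZT1 Ctrl, without overlap with the other 2 groups. All 4 tested ependymal markers were above 0 in both comparisons, and of the 8 endothelial markers 4 were above 0 for lighting at ZT1 and 2 for time in Ctrl. Without the 4 PFC libraries with neighboring-tissue markers, the time difference of Trem2 in Ctrl was 0.70 (adjusted p = 0.0132) and its lighting difference at ZT1 0.46 (adjusted p = 0.113), both in limma. The part of the mitochondrial share, of base quality, of the clean read rate or of these markers in either result was not tested.

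At ZT13 lighting gave no called difference among the 9 genes in PFC, where 0.0201% of genes were called. At an unadjusted P under 0.05, where 12.6% of all genes lay, there were 3 of the 9: C1qa lower under CJL, and Cx3cr1 and Csf1r higher. C1qa measured 28.1, 28.4 and 26.3 FPKM under CJL, below all 3 controls (-0.21 ± 0.08 SE, adjusted p = 0.338, limma), although at ZT1 it had been above all 3. With the correction for GC content and transcript length, the lighting difference of C1qa was 0.01 at ZT1 and -0.04 at ZT13. Csf1r measured 24.6, 21.1 and 22.5 FPKM under CJL and 20.4, 18.3 and 20.2 FPKM in Ctrl (0.21 ± 0.08 SE, adjusted p = 0.331, limma). Non-overlapping groups were seen for C1qa and C1qc with CJL lower, where 9.97% of genes did so, and for Cx3cr1 and Csf1r with CJL higher, where 7.93% did. Trem2 measured 8.24, 7.40 and 6.59 FPKM under CJL, spread around its 3 controls (-0.07 ± 0.09 SE).

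Under CJL the time difference of Trem2 in PFC was 0.17 ± 0.09 (SE; 95% interval -0.04 to 0.38), and none of the 9 genes was called, nor had an unadjusted P under 0.05 in limma, where 0.0335% of genes were called. The interaction of lighting and time, which tests whether the time difference itself changed, was -0.51 ± 0.13 (SE) for Trem2, with an adjusted p of 0.0980 in limma. It was -0.36 ± 0.11 (SE; adjusted p = 0.134) for C1qa and -0.61 ± 0.24 (SE; adjusted p = 0.215) for Tyrobp. With the correction for GC content and transcript length the interaction was -0.50 for Trem2, -0.05 for C1qa and -0.28 for Tyrobp. None of the 9 passed, where 0.0805% of all genes did, and 3 had an unadjusted P under 0.05, where 18.4% of all genes did. Averaged over lightings, Trem2 was higher at ZT13 by 0.43 ± 0.07 (SE; adjusted p = 0.0120, limma), the 1 gene of 9 called beside 2.85% of all genes, and without the 4 libraries with neighboring-tissue markers the adjusted p was 0.0594. Averaged over times, lighting gave no call among the 9 (0.0268% of all genes), with 1 gene, Trem2, at an unadjusted P under 0.05 beside 15.9% of all genes (0.19 ± 0.07 SE, adjusted p = 0.225, limma).

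**Figure D2:**
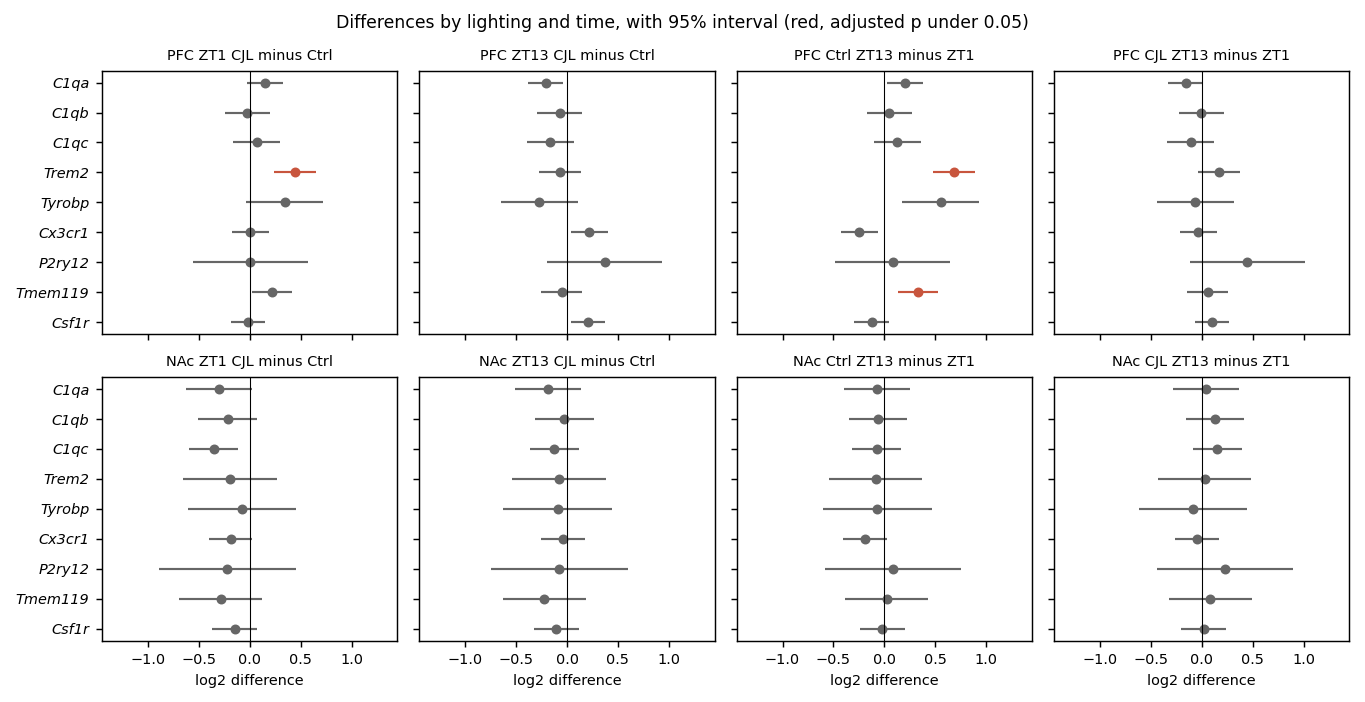
log2 difference (horizontal axis) of the 9 genes in the 8 comparisons of lighting and time, upper row PFC and lower row NAc; points are estimates from limma, lines 95% intervals, and red marks an adjusted p under 0.05. Trem2 at 0.68 and Tmem119 at 0.33 in PFC Ctrl ZT13 minus ZT1, and Trem2 at 0.44 in PFC ZT1 CJL minus Ctrl, are the red points, and in NAc ZT1 CJL minus Ctrl all 9 points lie below 0.

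In NAc no difference by lighting or time was called for any of the 9 genes. At ZT1 all 9 estimates were below 0, that is lower under CJL, with a median of -0.22 where all genes had 0.03. C1qc measured 18.7, 20.4 and 20.9 FPKM under CJL and 22.3, 28.5 and 26.4 FPKM in Ctrl. Its difference of -0.36 ± 0.11 (SE; unadjusted P = 0.00749, adjusted p = 0.628, limma) was the 1 of 9 at an unadjusted P under 0.05. C1qa measured 29.5, 30.8 and 32.3 FPKM under CJL and 38.4, 35.2 and 40.7 FPKM in Ctrl (-0.30 ± 0.15 SE). C1qb measured 27.6, 29.3 and 28.4 FPKM under CJL and 31.1, 32.3 and 36.0 FPKM in Ctrl (-0.22 ± 0.13 SE). All 3 C1q chain genes were thus below each control library, as were Cx3cr1 and Tmem119. These 5 of 9 genes compare with 4.44% of all genes that lay lower without overlap, but 0% of 15573 genes were called and 1200 had an unadjusted P under 0.05.

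The NAc ZT1 groups also differed in other markers. The summed FPKM of the 8 ependymal markers was 34.8 to 49.9 under CJL and 12.7 to 25.4 in Ctrl, 8 of 8 above 0 with a median difference of 1.25 and 1 marker at 0 in a Ctrl library. The 6 striatum markers summed to 309 to 696 FPKM under CJL and 592 to 743 FPKM in Ctrl, all 6 below 0 with a median of -0.42. The 10 thalamus and hypothalamus markers summed to 77.8 to 406 FPKM under CJL and 24.2 to 77.0 FPKM in Ctrl, 8 of 9 tested above 0 with a median of 0.86 and at most 1 at 0. Mitochondrial genes took 14.3% to 16.6% under CJL and 16.5% to 19.5% in Ctrl. Their part in the lower levels of the 9 genes was not tested.

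For lighting at ZT13 and for time in either lighting, the intervals of all 9 genes in NAc included 0. At ZT13, 9 of 9 estimates were again below 0 for lighting, from -0.22 for Tmem119 to -0.03 for C1qb, with groups that overlapped for each gene, and called genes were 0% of all. The time comparison gave 0% in Ctrl and 0% in CJL, and the 9 genes had no unadjusted P under 0.05 in any of these 3 comparisons in limma, where 1296, 1572 and 812 of all genes did. Trem2 measured 7.68, 6.55 and 8.12 FPKM at ZT1 and 5.42, 7.69 and 8.17 FPKM at ZT13 in NAc Ctrl (-0.09 ± 0.21 SE). Averaged over times, lighting gave -0.24 ± 0.08 (SE) for C1qc and -0.25 ± 0.10 (SE) for C1qa, both at an unadjusted P under 0.05 (0.00950 and 0.0381) and not called (adjusted p = 0.442 for C1qc, limma), where 9.51% of all genes had such an unadjusted P and 0% were called. Averaged over lightings, time called none of the 9 genes and 0.0321% of all, and the interaction of lighting and time called 0%, with no unadjusted P under 0.05 among the 9 in either and 1007 of all genes so for the interaction.

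Whether the regions differed in these effects was tested directly. The time difference of Trem2 was smaller in NAc than in PFC by -0.45 ± 0.17 (SE; unadjusted P = 0.0139, adjusted p = 0.527, limma), and 0% of genes were called, with 1329 at an unadjusted P under 0.05. The CJL difference was lower in NAc than in PFC for 9 of 9 genes, from -0.34 for Tmem119 to -0.07 for C1qb, with 3 at an unadjusted P under 0.05, where 12% of all genes lay: Cx3cr1, Csf1r and Tmem119. None was called (the lowest adjusted p was 0.341, for Cx3cr1, in limma), beside 0.00622% of all genes. The PFC and NAc effects are therefore not shown to differ.

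On average over conditions, 2 of the 9 genes were called between regions, and the other 7 were not. C1qa was higher in NAc, at 34.4 ± 5.3 FPKM (SD, n = 12) against 29.6 ± 2.6 FPKM (SD, n = 12) in PFC, a log2 difference of 0.21 ± 0.06 (SE; adjusted p = 0.00560, limma). P2ry12 was higher at 21.4 ± 5.1 FPKM against 15.1 ± 3.6 FPKM (SD, n = 12 each), a difference of 0.50 ± 0.15 (SE; adjusted p = 0.00702, limma). The ranges of both genes overlapped between regions, with P2ry12 at 8.72 to 20.3 FPKM in PFC and 10.7 to 28.0 FPKM in NAc. These 2 of 9 genes compare with 65.8% of 16072 genes called, and the median of all 9, 0.05, with a median of 0.12 over all genes. The calls over all genes were 7075 higher and 3494 lower in NAc. With median-of-ratios scaling, which moved the median of all genes to 0.01 and the calls to 5248 higher and 4875 lower, C1qa was at 0.10 (adjusted p = 0.166) and P2ry12 at 0.39 (adjusted p = 0.0327), and Tmem119 (-0.26, adjusted p = 0.00510) and Csf1r (-0.13, adjusted p = 0.0131) were called lower in NAc, all in limma. With the correction for GC content and transcript length P2ry12, whose longest transcript has the lowest GC content of the 9 at 38.6%, was at 0.17 (adjusted p = 0.358), and without the libraries with neighboring-tissue markers it was at 0.43 (adjusted p = 0.0710). Without NAc ZT13 Ctrl replicate 2, Tmem119 was called lower in NAc (-0.19, adjusted p = 0.0267, limma).

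By lighting, 3 of the 9 genes were called between regions in Ctrl, where 50.4% of all genes were: C1qa (0.32 ± 0.09 SE), P2ry12 (0.67 ± 0.21 SE) and Cx3cr1 (0.17 ± 0.06 SE), all higher in NAc, at adjusted p-values of 0.00499, 0.0143 and 0.0339 in limma. Without the libraries with neighboring-tissue markers none of the 3 passed (adjusted p = 0.0517, 0.0617 and 0.151). Cx3cr1 lost its call without any of 7 single Ctrl libraries: PFC ZT1 replicates 1 and 2, PFC ZT13 replicates 1 and 2, NAc ZT1 replicates 1 and 3 and NAc ZT13 replicate 3, with adjusted p-values from 0.0524 to 0.0945, and Trem2 was called without NAc ZT13 Ctrl replicate 1 (0.33, adjusted p = 0.0229) and C1qc without PFC ZT1 Ctrl replicate 2 (0.18, adjusted p = 0.0442). With median-of-ratios scaling the difference of Cx3cr1 was 0.07 (adjusted p = 0.374), and the calls over all genes went from 5392 higher and 2712 lower to 3886 and 3687 in Ctrl, and from 6097 and 2965 to 4388 and 4261 in CJL. In CJL, Tmem119 alone of the 9 was called, where 56.4% of all genes were, and was lower in NAc: its 6 libraries measured 5.86 to 8.25 FPKM there and 8.28 to 9.98 FPKM in PFC, a difference of -0.32 ± 0.11 (SE; adjusted p = 0.0150, limma) that became -0.28 (adjusted p = 0.128) without the libraries with neighboring-tissue markers. Without NAc ZT1 CJL replicate 1 P2ry12 was called as well (0.52, adjusted p = 0.0279, limma), and without PFC ZT13 CJL replicate 2 so was Csf1r (-0.16, adjusted p = 0.0465, limma). Cx3cr1, which the main normalization called higher in NAc in Ctrl and left uncalled in CJL (-0.06, adjusted p = 0.428), was called lower in NAc in CJL with median-of-ratios scaling (-0.18, adjusted p = 0.0162), quantile normalization (-0.16, adjusted p = 0.0364) and the GC and length correction (-0.15, adjusted p = 0.0325), as was Csf1r, with differences from -0.25 to -0.19 and adjusted p-values from 0.00179 to 0.0159 (limma). C1qc was called lower with median-of-ratios scaling alone (-0.19, adjusted p = 0.0443, limma).

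**Figure D3:**
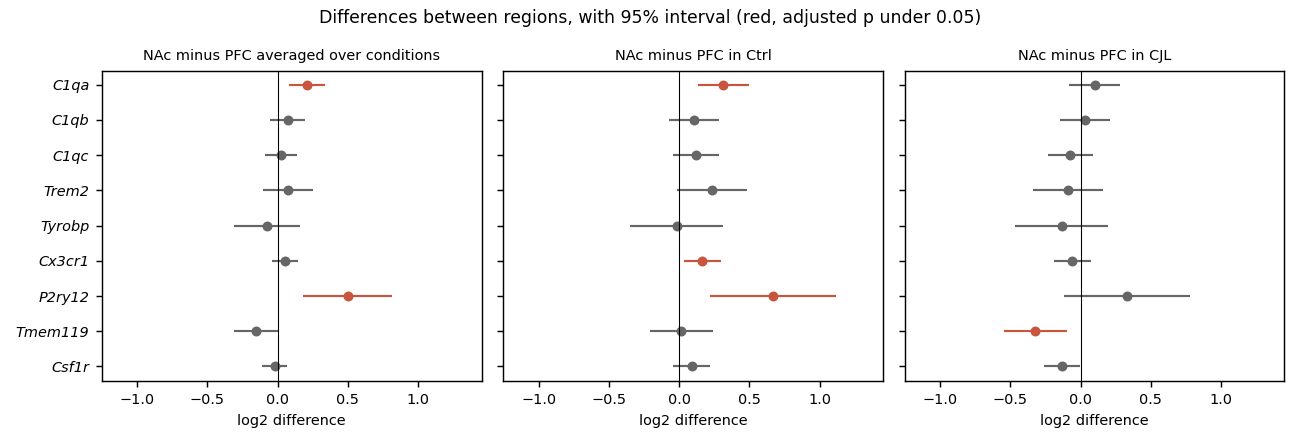
log2 difference between NAc and PFC (horizontal axis) of the 9 genes, over all 24 libraries, in the 12 Ctrl libraries and in the 12 CJL libraries; points are estimates from limma, lines 95% intervals, and red marks an adjusted p under 0.05. C1qa and P2ry12 are red and above 0 over all libraries and in Ctrl, Cx3cr1 in Ctrl, and Tmem119 is red and below 0 in CJL.

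Ordered by group mean, Trem2 ran from PFC ZT1 Ctrl (4.80 ± 0.43 FPKM; SD, n = 3) through PFC ZT1 CJL (6.55 ± 0.14), NAc ZT1 CJL (6.61 ± 1.75), NAc ZT13 CJL (6.69 ± 1.24), NAc ZT13 Ctrl (7.10 ± 1.47), PFC ZT13 CJL (7.41 ± 0.83) and NAc ZT1 Ctrl (7.45 ± 0.81) to PFC ZT13 Ctrl (7.76 ± 0.24). The first group lay apart from the next, and every later pair of neighbors in that order overlapped. Tyrobp was likewise lowest in PFC ZT1 Ctrl (11.0 ± 0.3 FPKM; SD, n = 3) and highest in PFC ZT13 Ctrl (16.5 ± 3.9). The C1q genes had their highest means in NAc ZT1 Ctrl, with 38.1 ± 2.8 FPKM for C1qa, 33.1 ± 2.5 for C1qb and 25.7 ± 3.1 for C1qc (SD, n = 3). C1qb, P2ry12, Tmem119 and Csf1r had no neighboring groups without overlap.

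Of the summed FPKM of the 3 C1q genes, C1qa made up 37.4% ± 2.6, C1qb 35.7% ± 1.8 and C1qc 26.8% ± 1.8 (SD over 24 libraries). The share of C1qa ranged from 29.8% to 42.0%, that of C1qb from 32.8% to 39.7% and that of C1qc from 22.98% to 30.5%. C1qa was at 36.2% ± 2.3 in PFC and 38.7% ± 2.4 in NAc (SD, n = 12 each). The sum itself ranged from 73.0 to 109 FPKM.

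Within groups the genes differed in spread. The pooled SD within groups, in log2 units, was 0.10 for Cx3cr1 and Csf1r, 0.14 for C1qc, 0.15 for C1qb, 0.16 for C1qa, 0.19 for Tmem119, 0.22 for Trem2, 0.30 for Tyrobp and 0.41 for P2ry12, where the median over all genes was 0.19. P2ry12 varied between libraries of the same group, at 10.7, 24.4 and 23.1 FPKM in NAc ZT1 CJL and at 18.7, 14.6 and 8.72 FPKM in PFC ZT1 CJL. Its level had a Pearson r of 0.19 with that of Med12l, in which it lies, over the 24 libraries.

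Correlations are given as descriptions over 24 libraries that share groups, processing and the FPKM scale. After the mean of each group was subtracted, 29 of the 36 pairs had r above 0, with a median of 0.39. Cx3cr1 with Csf1r (0.67) and C1qb with Csf1r (0.67) were the highest, followed by C1qa with Tyrobp (0.65) and C1qb with C1qc (0.62). C1qa with C1qc had 0.14. P2ry12 stood aside: 2 of its 8 pairs were above 0, from -0.30 with Csf1r to 0.36 with C1qa. Trem2 with Tyrobp, the receptor and its adaptor, had 0.57 over libraries and 0.44 with group means subtracted.

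**Figure D4:**
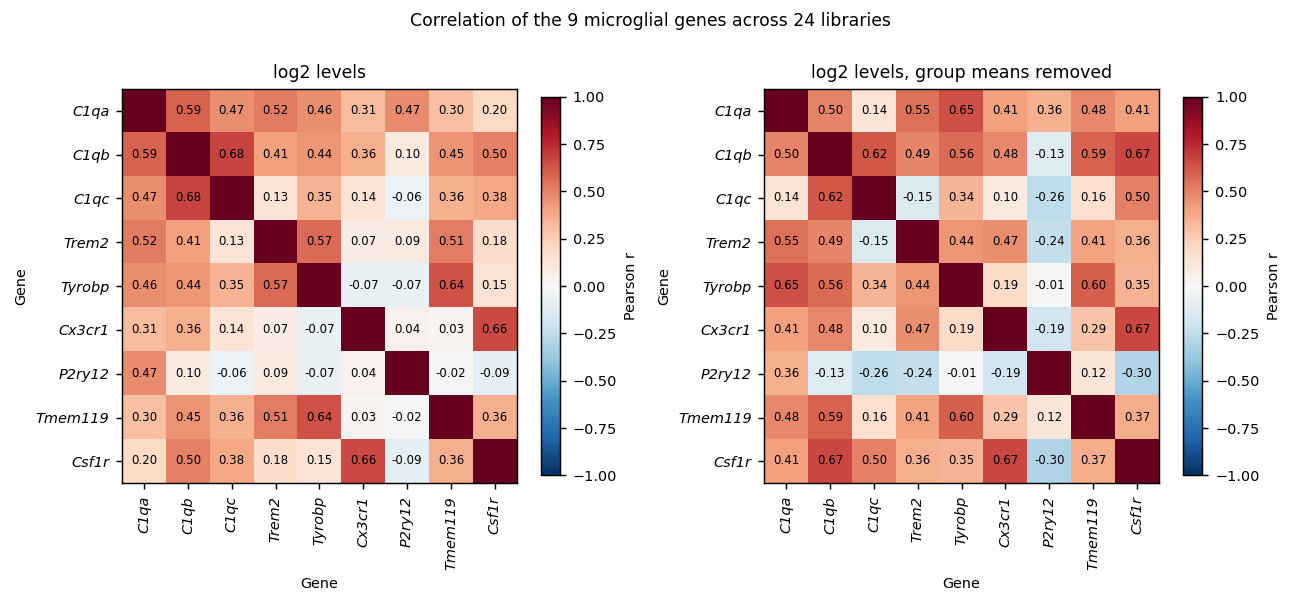
Pearson r between pairs of the 9 genes over 24 libraries, in log2 levels (left) and with group means subtracted (right); each axis lists the genes and color runs from blue at -1 to red at 1. The P2ry12 row is pale or blue except with C1qa, while C1qb with C1qc is at 0.68 on the left and 0.62 on the right.

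Of 16050 other genes, Ctss, which encodes the lysosomal protease cathepsin S of microglia, followed the mean log2 level of the 9 genes most closely over the 24 libraries (r = 0.76). Rps13-ps2, Rps15, Rnf166, Fau and Ecsit came next, from 0.75 to 0.74. Of these, Rps15 and Fau encode ribosomal proteins, and the level of the pseudogene Rps13-ps2 is uncertain because it can share reads with its parent gene. With group means subtracted the nearest were Gabarap (0.91), an autophagy gene, Psmg3 (0.89), a proteasome assembly gene, Nol12 (0.88), Ndufa11 (0.87), a gene of respiratory complex I, Dtnbp1 (0.86) and Rps10-ps2 (0.86). Ctss then had 0.82. Gabarap, Ndufa11 and the ribosomal genes are expressed in all cell types.

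In PFC Ctrl, 2 of the 28 tested homeostatic microglial genes other than the 9 were lower at ZT13 and none higher, where 3.54% of all genes were called lower and 8.8% higher. Olfml3, a secreted glycoprotein gene, was at 3.54 ± 0.62 FPKM at ZT1 and 1.15 ± 0.15 FPKM at ZT13 (SD, n = 3 each; -1.53 ± 0.31 SE, adjusted p = 0.0137, limma). Its lowest ZT1 library was at 2.83 FPKM and its highest ZT13 library at 1.32 FPKM. P2ry13, a purine receptor gene like P2ry12, fell by 0.47 on the log2 scale (SE 0.13, adjusted p = 0.0344, limma), whereas P2ry12 differed by 0.08 ± 0.26 (SE). The median of the 28 genes was -0.12, and that of all genes 0.06.

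Of 15 tested genes linked to activated microglia, 3 were higher at ZT13 in PFC Ctrl and none lower, beside 8.8% of all genes higher and 3.54% lower: Cd63 (0.50 ± 0.10 SE, adjusted p = 0.0127, limma) and Cd9 (0.33 ± 0.09 SE, adjusted p = 0.0410), both tetraspanin genes, and the chemokine gene Ccl6 (0.71 ± 0.20 SE, adjusted p = 0.0392). At ZT1, Cd63 (0.55 ± 0.10 SE, adjusted p = 0.0291, limma) and Cd9 (0.44 ± 0.09 SE, adjusted p = 0.0433) were also higher under CJL, 2 of the 15 beside 1.17% of all genes, in a comparison that shares the PFC ZT1 Ctrl libraries. Ccl6 reached an FPKM of 1 in PFC only in the ZT13 Ctrl libraries (1.03 to 1.48 FPKM). It entered the fit only through the group called higher, so its call adds no support to the count. Cd9 and Cd63 are also expressed by astrocytes and oligodendrocytes. Of 3 tested inflammatory cytokine genes none was called in either comparison.

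Of 21 complement genes other than C1q tested in PFC, none was called at ZT1 under CJL in limma, where 1.59% of all genes were, with 2 lower at an unadjusted P under 0.05, as were 7.39% of all genes. In Ctrl 2 fell at ZT13, where 3.54% of all genes did: Cd93, first described as a C1q receptor and abundant in endothelium (-0.75 ± 0.15 SE, adjusted p = 0.0137, limma), and Calr, the endoplasmic reticulum chaperone calreticulin that can bind C1q (-0.24 ± 0.07 SE, adjusted p = 0.0381). C3, the central complement component, was at 0.00880 to 0.0827 FPKM in PFC and 0.101 to 0.662 FPKM in NAc, below the FPKM of 1 that the tests required. C4b, cleaved by the C1 complex, was higher in NAc, at 7.69 ± 0.86 FPKM against 3.78 ± 0.77 FPKM (SD, n = 12 each; log2 difference 1.02 ± 0.10 SE, adjusted p = 1.67e-08, limma). C1ra, a protease of the C1 complex, was lower there, at 0.152 ± 0.101 FPKM against 1.16 ± 0.14 FPKM (SD, n = 12 each; -2.42 ± 0.17 SE, adjusted p = 2.09e-10, limma). No NAc library exceeded 0.367 FPKM for C1ra, so it passed the filter only through PFC, the region where it was higher. Its NAc values lie near the 0.1 added before the log, on which the size of the log2 difference depends.

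Among ligands and signaling partners, Apoe, a lipoprotein gene of astrocytes whose product binds TREM2, was the 1 of 12 tested in PFC that was called under CJL at ZT1, where 1.59% of all genes were, at 378 ± 49 FPKM against 225 ± 46 FPKM (SD, n = 3 each; 0.76 ± 0.16 SE, adjusted p = 0.0462, limma). Between ZT13 and ZT1 in PFC Ctrl it differed by 0.51 ± 0.16 (SE; adjusted p = 0.0618). The CSF1R ligands were not called: Il34 differed by 0.12 ± 0.09 (SE) and Csf1 by -0.02 ± 0.10 (SE) under CJL at ZT1. Between regions, Il34 was lower in NAc (18.1 ± 3.2 against 25.7 ± 1.8 FPKM; SD, n = 12 each; -0.52 ± 0.08 SE, adjusted p = 1.40e-05, limma), Csf1 was not called (0.02 ± 0.10 SE), and Syk (-0.42 ± 0.12 SE, adjusted p = 0.00341) and Tgfb1 (-0.21 ± 0.07 SE, adjusted p = 0.0114) were lower in NAc. Syk in PFC differed by -0.10 ± 0.19 (SE) between ZT13 and ZT1 in Ctrl, and Tgfb1, the growth factor gene on which microglial identity depends, by -0.12 ± 0.14 (SE).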

How the data were processed

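Polyadenylated RNA was sequenced from PFC and NAc in 3 libraries per region, time and lighting. The submitters' processing notes name FastQC 0.11.9, HISAT2, StringTie and the mm10 build, and the settings are not given in the sources used here. The authors deposited FPKM for each library, scaled for depth and gene length. They also deposited 8 tables of their own comparisons, which hold a fold and a p-value per gene and were not used here.

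Values were transformed to log2(FPKM + 0.1). A gene entered a fit when 3 or more of its libraries reached an FPKM of 1. Linear models used limma 3.58.1 (R 4.3.3) with moderated variances that followed the mean level, on the 12 libraries of a region (14914 genes in PFC, 15573 in NAc) or all 24 for regions (16072), and p-values were adjusted by the Benjamini-Hochberg method over all genes of a fit. The code was tested on simulated data. Alternatives changed the pseudocount, filter, scaling, variance trend, libraries or groups, or added a replicate block. The correction for GC content and transcript length was chosen after seeing the data. It took GC content and length from the longest annotated transcript of each gene, which need not be the transcript expressed.

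The 9 genes and all lists were chosen with earlier results of these data known. Named beside the 9 are up to 4 called genes per list and comparison by smallest p, the 6 genes most like the 9, and 8 fixed partner and complement genes. Both regions came from the same mice, but no label ties a PFC library to its NAc partner, and regions were compared unpaired. P-values measure only the spread between these libraries.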

Additional observations from a re-analysis of the deposited data

How the results depend on the processing

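Over the 19 comparisons, the number of the 9 genes called moved by more than 1.5 times in 6. These were all the comparisons in which any of the 9 was called. In the other 13 the count was 0 and stayed 0 in each alternative. At most 0.0805% of all genes were called in those comparisons, so an unmoved count there says little about stability. No called difference changed sign. For lighting at ZT1 in PFC the count of 1 became 0 with no filter on low FPKM, with median-of-ratios scaling, with the replicate block, without a trend, with the correction for GC content and transcript length, with the groups of the comparison alone and without the libraries with neighboring-tissue markers. It was 0 to 1 when single libraries were left out. For time in PFC Ctrl the count of 2 became 1 with no filter, with the replicate block, with the GC and length correction, with the groups alone and without the neighboring-tissue libraries, and was 1 to 3 without single libraries. With median-of-ratios scaling and with quantile normalization the count stayed at 2, but the genes changed. Trem2 was then called higher and Cx3cr1 lower, and Tmem119 was not called. For time in PFC averaged over lightings it went from 1 to 0 without the neighboring-tissue libraries. Between regions, the count of 2 on average became 1 with the GC and length correction and 1 without the neighboring-tissue libraries. In Ctrl the count of 3 became 1 and 0 under the same settings, and in CJL the count of 1 became 4 with median-of-ratios scaling, 3 with quantile normalization, 3 with the GC and length correction and 0 without the neighboring-tissue libraries, with 1 to 2 without single libraries. Except where given, the causes were not tested. The replicate block left 8 called genes of all tested in PFC at ZT1 against 237 without it, and 1312 against 1840 for time in PFC Ctrl. With the block Trem2 had an adjusted p of 0.0920 for lighting at ZT1 and 0.0142 for time in Ctrl, and Tmem119 0.0562 (limma). Whether replicate numbers mark the same mouse is not settled: r between deviations of same-numbered libraries was -0.17 to 0.20 within a region. Between regions it was 0.02 to 0.13 (median 0.04, 12 pairs), against -0.15 to 0.11 (median -0.03, 24 pairs) for different numbers.

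With 3 libraries per group, precision differs by gene: the SE of a difference in PFC was 0.09 for Trem2 and 0.26 for P2ry12. FPKM carry no depth, so counting error cannot be told apart from the spread between libraries.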

Other observations

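Cx3cl1, the neuronal ligand of CX3CR1, was listed at levels that fell into separate clusters within groups. In PFC ZT1 Ctrl it measured 19.3, 256 and 246 FPKM, in PFC ZT1 CJL 16.3, 220 and 20.9 FPKM and in NAc ZT1 CJL 142, 10.4 and 132 FPKM. No library lay between 20.9 and 110 FPKM. Whether these values are expression levels was not settled. Olfml3 was at 1.30 FPKM in NAc ZT1 CJL replicate 3 against 3.98 and 3.86 FPKM in the other replicates.

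The T cell receptor constant gene Trbc2 was the 1 blood leukocyte marker of 10 that passed the filter between regions, at 15.1 ± 2.6 FPKM in PFC and 1.13 ± 1.1 FPKM in NAc (SD, n = 12 each; log2 difference -4.07 ± 0.33 SE, adjusted p = 1.29e-09, limma). Which cells the Trbc2 transcripts came from was not tested, and 1 gene does not show a difference in leukocytes. In border macrophage markers, Pf4, Stab1 and Mrc1 were lower and Cd163 higher in NAc, with log2 differences of -0.86, -0.38, -0.62 and 0.51 at adjusted p-values from 0.000260 to 0.00933 (limma). Cd163 reached an FPKM of 1 only in the NAc ZT13 Ctrl libraries (1.01 to 1.13 FPKM). It passed the filter only through the region called higher, so its call adds no support. Pf4 and Mrc1 each reached an FPKM of 1 in fewer than 3 NAc libraries. They passed the filter only through PFC, the region where they were higher, so their calls add no support either. Mrc1 also lay near the filter, with maxima of 1.14 FPKM in PFC and 1.03 FPKM in NAc.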
